A study of Arabidopsis thaliana with 21 samples.

Results

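Nitrate given for 1 h to nitrogen-starved roots of the Landsberg erecta (Ler) accession of Arabidopsis thaliana was followed by RNA sequencing in 6 libraries. The 3 KNO3 libraries came from Ler roots treated with 5 mM KNO3 for 1 h, and the 3 KCl libraries from Ler roots treated with 5 mM KCl for the same time, so that both groups received potassium and differed in the anion. All seedlings had grown for 7 days on MGRL medium with 5 mM nitrate and then spent 2 days without nitrogen. The genotype is wild type, although 1 field of the labels also calls the Ler plants transgenic. The genes described are the 770 that the authors deposited as nitrate-regulated in Ler, all taken, out of 1128 root genes with values in the series. The whole series holds 21 libraries, and its other root libraries carry KIN10-HA under the constitutive 35S promoter (KIN10ox), KIN10 being a catalytic subunit of the energy-sensing kinase SnRK1. KIN10ox roots had the same growth and the same KNO3 and KCl treatments, 3 libraries each. Whole roots were used, so fewer cells of a type and less RNA per cell cannot be told apart.

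Nitrate is both the main nitrogen source of most soils and a signal. Root cells take it up through transporters of the NRT2 and NPF families, reduce it to nitrite in the cytosol and to ammonium in the plastid, and bind the ammonium into glutamine and glutamate. The signal runs through the transceptor NPF6.3, calcium-dependent kinases and NIN-like (NLP) transcription factors, which switch on a first wave of genes within minutes. Those genes include further regulators, reductant-generating enzymes and cytokinin synthesis.

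Depth was even, at 19704764 to 19798664 mapped fragments in the KNO3 libraries and 19870523 to 20236390 in the KCl libraries. The 770 genes took up 7.74 to 8.04% of the fragments with KNO3, against 2.79 to 2.85% with KCl. Of the 27444 protein-coding genes annotated on the 5 nuclear chromosomes, 2.81% were listed, 537 with a higher mean with KNO3 (1.96%) and 233 with a lower one (0.849%). Levels are in FPKM, fragments scaled to gene length and to the mapped fragments of the library, and a fold is the ratio of mean FPKM ± SE. "Rose" and "fell" are used for genes with an adjusted p under the threshold of 0.05 in edgeR's quasi-likelihood test on counts. Of 711 genes with enough counts to test, 504 rose (70.9%) and 206 fell (29.0%), 1 was not called and 59 were too low to test. Because the authors picked these genes from the same libraries, these shares describe the selection and are not evidence of a response. Scaling by TMM or by DESeq2's size factors re-centres values over these selected genes, and the counts were then 191 rises and 214 falls with TMM and 190 rises and 206 falls with DESeq2. The median log2 change of all tested genes moved with it, being 1.15 with library sizes, -0.01 with TMM and 0.03 with DESeq2. Rises near 2-fold therefore turn negative under these scalings, and falls become larger. Such a change of sign follows from re-centring on a list of mostly raised genes. The authors' deposited log2 fold changes lie a median of 0.102 above the log2 ratios of mean FPKM. Library values did not overlap between treatments for 524 higher genes (68.1% of 770) and 222 lower ones (28.8%). None of 12 root cell type markers was among the genes with values, so the root label was not checked against them. Photosynthesis genes, markers of green tissue, had values for 12 of 17 list members, and their summed level was 171 to 182 FPKM with KNO3, against 201 and 236 FPKM in 2 KCl libraries and 391.5 FPKM in KCl replicate 1, which stands apart. Without that library 501 genes rose and 208 fell.

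The response was lopsided in size. Listed rises had a median of 16.1 FPKM with KNO3 and 5.11 FPKM with KCl, and listed falls a median of 1.67 FPKM with KNO3 and 4.87 FPKM with KCl. The median log2 ratio was 1.42 for the rises and -1.41 for the falls. Both groups hold only genes with a deposited log2 fold change of at least 1.0 in size, so the likeness of these medians is not a result. The long tail was among the rises, with 53 genes at a log2 ratio of 3 or more and 9 genes at -3 or less. Summed over genes, the rises gained 32655 FPKM, while the total of the falls dropped by 2825 FPKM. A few transcripts carried the gain: the 5 genes with the largest gain (NRT3.1, RFNR2, NRT2.1, FD3 and NIR1) held 25.6% of it and the top 20 held 57.0%. At the low end, 85 genes stayed under 1 FPKM in both treatments.

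**Figure D1:**
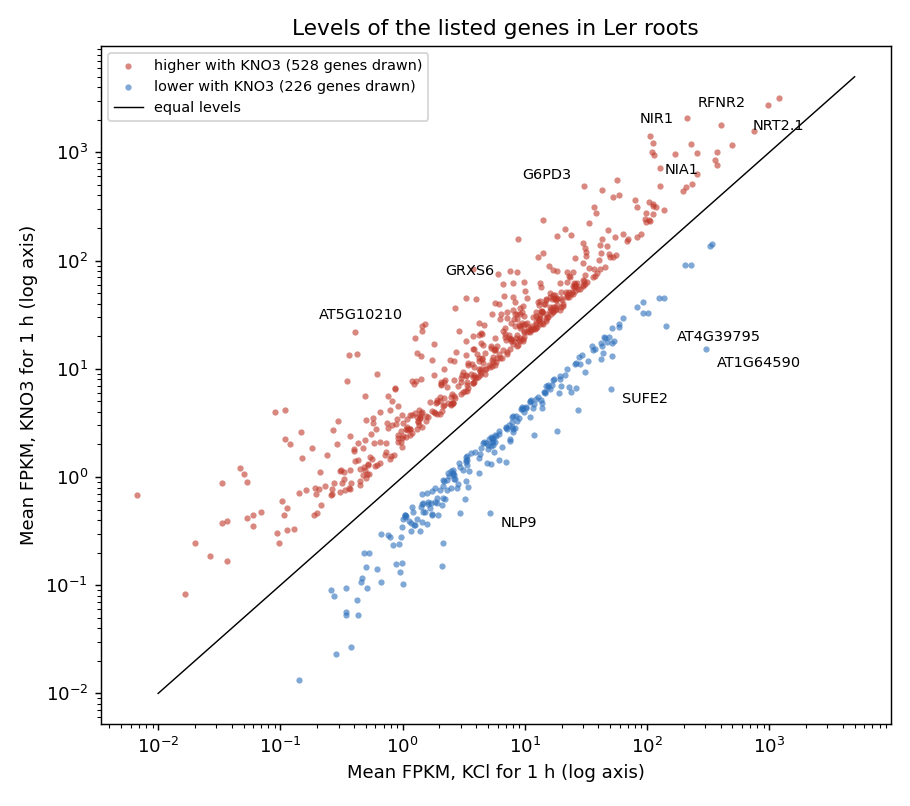
Mean FPKM of the listed genes in Ler roots with KNO3 (vertical, log axis) against KCl (horizontal, log axis), n = 3 libraries each, for 754 genes, since 16 with a mean of 0 in one treatment cannot be drawn. Rises reach the top right corner of the plot (NRT2.1 2759 against 969 FPKM), while AT1G64590 is the fall farthest from the line.

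Uptake genes were already abundant without nitrate and rose further. Of 19 annotated nitrate transport genes 5 were listed and all 5 rose, with a median log2 ratio of 1.51 beside 1.15 over all 770 genes. NRT3.1 (AT5G50200), the partner protein that NRT2 carriers need at the plasma membrane, had 3360, 3126 and 3005 FPKM with KNO3, against 1301, 1229 and 1093 FPKM with KCl. NRT2.1 (AT1G08090), the main high-affinity nitrate carrier of roots, had 2806, 2661 and 2809 FPKM with KNO3, against 998, 988 and 922 FPKM with KCl. The groups of both genes were far apart, 2.62 ± 0.16-fold for NRT3.1 and 2.85 ± 0.087-fold for NRT2.1. NRT2.2 (AT1G08100), the tandem neighbour of NRT2.1, started from a lower level and rose 7.33 ± 0.82-fold, at 390, 369 and 407 FPKM with KNO3, against 55.5, 61.5 and 42.0 FPKM with KCl. Reads of these 2 similar carriers may have been shared between them in counting. NPF6.3 (AT1G12110), the dual-affinity carrier that also senses nitrate, had 416, 391 and 406 FPKM with KNO3, against 61.4, 53.5 and 61.2 FPKM with KCl, a 6.88 ± 0.33-fold rise. NRT2.6 (AT3G45060) stayed low, at 1.94, 1.97 and 0.86 FPKM with KNO3, against 0.86, 0.98 and 0.30 FPKM with KCl, and its libraries touch at 0.86 FPKM. NRT2.6 is the member of this list that turned negative with TMM.

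Kinases that act on nitrate transport and signalling were listed for 4 of 8 genes of that list, and all 4 rose. CIPK3 (AT2G26980) rose 5.07 ± 0.49-fold, at 29.4, 29.9 and 37.1 FPKM with KNO3, against 5.66, 6.48 and 6.88 FPKM with KCl. The calcium sensor CBL9 (AT5G47100), which recruits CIPK23, averaged 39.7 FPKM with KNO3 and 14.4 FPKM with KCl, and CIPK23 (AT1G30270), which phosphorylates NPF6.3, averaged 76.6 FPKM with KNO3 and 39.2 FPKM with KCl. CIPK8 (AT4G24400) averaged 58.8 FPKM with KNO3 and 30.0 FPKM with KCl. CIPK23 and CIPK8, both close to 2-fold, turned negative with TMM and DESeq2 (-0.19 and -0.15 for CIPK23).

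Both reduction steps rose. Of 21 genes for nitrate reduction and ammonium assimilation 7 were listed and all rose, with a median log2 ratio of 1.92. NIR1 (AT2G15620), plastid nitrite reductase, had 1440.4, 1401 and 1430 FPKM with KNO3, against 113, 109 and 98.3 FPKM with KCl, a 13.4 ± 0.55-fold rise with an edgeR adjusted p of 4.0e-12. NIA1 (AT1G77760), a cytosolic nitrate reductase, had 883, 896 and 1031 FPKM with KNO3, against 111, 120 and 113 FPKM with KCl. NIA2 (AT1G37130), the second nitrate reductase, had 989, 999.9 and 1039 FPKM with KNO3, against 372, 374 and 385 FPKM with KCl. The 2 nitrate reductases thus had similar mean levels with KNO3 (936 FPKM for NIA1 and 1009 FPKM for NIA2), while with KCl NIA1 was at 114 FPKM and NIA2 at 377 FPKM. UPM1 (AT5G40850), which makes the precursor of sirohaem, the cofactor of nitrite and sulfite reductases, had 471, 418 and 456 FPKM with KNO3, against 41.1, 41.1 and 46.7 FPKM with KCl. Downstream, GLT1 (AT5G53460), NADH-dependent glutamate synthase, averaged 316 FPKM with KNO3 and 83.1 FPKM with KCl. GLN2 (AT5G35630), plastid glutamine synthetase, averaged 233 FPKM with KNO3 and 106 FPKM with KCl, and ASN2 (AT5G65010), an asparagine synthetase, 51.4 FPKM with KNO3 and 24.2 FPKM with KCl. The ratio was 3.80 ± 0.24 for GLT1 and 2.19 ± 0.036 for GLN2, beside 2.68 ± 0.049 for NIA2, and GLN2 with TMM and ASN2 with both scalings turned negative. None of the 4 cytosolic GLN1 genes, the GDH genes, GLU1, ASN1 or ASN3 was listed.

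Reductant supply was listed for 10 of 16 genes, all of which rose, at a median log2 ratio of 2.43, and all 10 stayed positive with TMM and DESeq2. Nitrite reductase draws electrons from ferredoxin, which non-green plastids reduce with NADPH from the oxidative pentose phosphate pathway. G6PD3 (AT1G24280), the entry enzyme of that pathway, had 495, 465 and 512 FPKM with KNO3, against 28.4, 30.9 and 31.5 FPKM with KCl, a 16.2 ± 0.69-fold rise. PGD3 (AT5G41670), a 6-phosphogluconate dehydrogenase that makes NADPH in the next oxidation, had 984, 976 and 1056 FPKM with KNO3, against 109, 112 and 108 FPKM with KCl. RFNR2 (AT1G30510), root ferredoxin-NADP reductase, had 2172, 2020.3 and 2106 FPKM with KNO3, against 195, 217 and 228 FPKM with KCl. All 3 enzymes had libraries that lay close together within a treatment and far apart between treatments, with ratios of means of 9.15 or more. RFNR1 (AT4G05390) averaged 561 FPKM with KNO3 and 57.3 FPKM with KCl, and the ferredoxin FD3 (AT2G27510) 1804 FPKM with KNO3 and 405 FPKM with KCl. The non-oxidative branch rose as well, with the transketolase TKL1 (AT3G60750) at 1185 FPKM with KNO3 and 230.2 FPKM with KCl and the transaldolase TRA2 (AT5G13420) at 978 FPKM with KNO3 and 256 FPKM with KCl. Paralogues differed in size of change: G6PD2 rose 4.79 ± 0.24-fold beside 16.2-fold for G6PD3, and PGD1 5.68 ± 0.21-fold beside 9.15 ± 0.25-fold for PGD3.

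**Figure D2:**
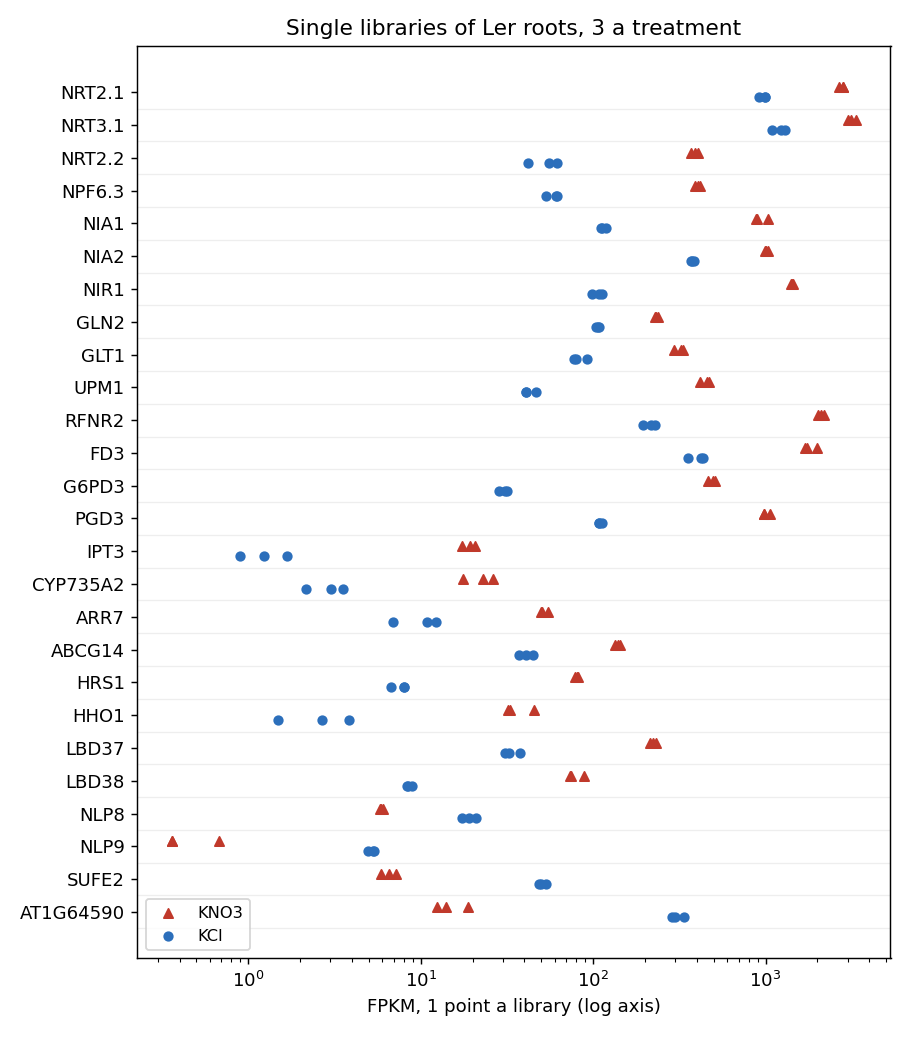
FPKM of single Ler root libraries (log axis) for genes of nitrate uptake, reduction, reductant supply, cytokinin and regulation, with triangles for the 3 KNO3 libraries and circles for the 3 KCl libraries of each gene. The symbols of the treatments are separate for every gene drawn, with NIR1 at 1401 to 1440.4 FPKM with KNO3 and 98.3 to 113 FPKM with KCl, and with NLP8, NLP9, SUFE2 and AT1G64590 reversed.

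Carbon skeletons for amino acids come from glycolysis and organic acids. Of 11 organic acid genes 4 were listed and all rose, although PPC3 and PPCK2 turned negative with TMM and DESeq2. TDT (AT5G47560), the vacuolar malate and dicarboxylate transporter, had 26.8, 23.2 and 25.0 FPKM with KNO3, against 1.59, 1.30 and 1.44 FPKM with KCl, a 17.3 ± 1.2-fold rise. DIT1 (AT5G12860), the plastid exchanger of 2-oxoglutarate and malate, averaged 272 FPKM with KNO3 and 97.7 FPKM with KCl. PPC3 (AT3G14940), a phosphoenolpyruvate carboxylase, averaged 761 FPKM with KNO3 and 374 FPKM with KCl, and its regulatory kinase PPCK2 (AT3G04530) 8.77 FPKM with KNO3 and 4.31 FPKM with KCl. GAPC2 (AT1G13440), cytosolic glyceraldehyde-3-phosphate dehydrogenase, was among the genes with the largest absolute difference, at 1568 FPKM with KNO3 and 754 FPKM with KCl, and it too turned negative with both scalings. Trehalose 6-phosphate, a sugar signal, is removed by TPP phosphatases, and these split: TPPB (AT1G78090) averaged 41.2 FPKM with KNO3 and 8.27 FPKM with KCl and TPPJ (AT5G65140) 51.6 FPKM with KNO3 and 21.6 FPKM with KCl, while TPPI (AT5G10100) fell to 15.04 FPKM with KNO3, against 36.2 FPKM with KCl. TPS9 (AT1G23870), of the synthase family, rose 2.19 ± 0.20-fold, a change that turned negative with TMM. Energy starvation genes that SnRK1 induces were listed for 2 of 12, and both fell: DRM1 (AT1G28330), a dormancy-associated gene, had 33.5, 36.6 and 27.5 FPKM with KNO3, against 101, 99.9 and 106 FPKM with KCl, and its relative DRM2 (AT2G33830) averaged 19.8 FPKM with KNO3 and 49.2 FPKM with KCl.

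Genes for other nutrients changed within the hour. In sulfate assimilation, which shares sirohaem with nitrite reduction, 5 of 15 genes were listed for Ler, of which 4 rose and 1 fell, with SIR turning negative under both scalings. SULTR1;2 (AT1G78000), the main root sulfate carrier, had 120.0, 133 and 137 FPKM with KNO3, against 37.2, 30.7 and 25.9 FPKM with KCl. APR2 (AT1G62180), which reduces activated sulfate, averaged 106 FPKM with KNO3 and 25.7 FPKM with KCl, SIR (AT5G04590), sulfite reductase, 174 FPKM with KNO3 and 89.6 FPKM with KCl, and SULTR3;5 (AT5G19600) 16.9 FPKM with KNO3 and 1.81 FPKM with KCl. The exception was SUFE2 (AT1G67810), an activator of sulfur transfer for iron-sulfur clusters, which had 5.92, 7.18 and 6.55 FPKM with KNO3, against 50.1, 53.3 and 48.5 FPKM with KCl, 7.73 ± 0.48-fold higher with KCl. Of 28 iron and zinc genes 6 were listed, and all rose: the nicotianamine synthases NAS1 (AT5G04950, 167 FPKM with KNO3 and 54.5 FPKM with KCl), NAS2 (AT5G56080, 74.2 FPKM with KNO3 and 31.2 FPKM with KCl) and NAS4 (AT1G56430, 44.6 FPKM with KNO3 and 16.7 FPKM with KCl), the transporter OPT3 (AT4G16370) and the iron-signal peptides IMA1 and IMA2, both under 3 FPKM. All 6 stayed positive with TMM and DESeq2, and 1 then passed the test. The uptake genes IRT1 and FRO2 and their regulator FIT were not listed. Outside this list of 28, other genes of iron and zinc families fell, so the direction of the 6 does not hold for all such genes. These were IRT2, ZIP5, FRO8 and MTPA2 (edgeR log2 change -1.19, -1.19, -2.13 and -1.12), which stayed lower with TMM and DESeq2. Phosphate genes were listed for 3 of 15. PS2 (AT1G73010), a phosphate starvation phosphatase, fell to 4.37 FPKM with KNO3, against 13.8 FPKM with KCl, and SPX1 (AT5G20150) to 1.96 FPKM with KNO3, against 5.04 FPKM with KCl, whereas SPX4 (AT5G15330), an inhibitor of phosphate signalling, averaged 30.1 FPKM with KNO3 and 15.4 FPKM with KCl and turned negative with both scalings. SKOR (AT3G02850), the potassium channel that loads the xylem, had 5.22, 5.40 and 6.17 FPKM with KNO3, against 0.44, 0.56 and 0.48 FPKM with KCl, and the inward channel KAT1 (AT5G46240) was low and fell, at 0.160 FPKM with KNO3 and 0.983 FPKM with KCl. The 4 listed P-type ATPases were higher with KNO3: the plasma membrane proton pumps HA2 (AT4G30190, 1180 FPKM with KNO3 and 501 FPKM with KCl) and HA1 (AT2G18960, 849.9 FPKM with KNO3 and 359 FPKM with KCl), the calcium pump ACA4 and the zinc pump HMA2 rose, with HMA2 negative under TMM and DESeq2. No aquaporin of 18 was listed, and GDU1 was the only listed member of 12 ammonium, urea and amino acid transport genes. That list is not complete. Outside it, the proline transporter PROT2 fell (log2 ratio -1.135) and GDU4 rose (1.178). Of 5 listed genes of the UMAMIT amino acid exporters 4 rose, and UMAMIT17 fell to 17.6 FPKM with KNO3, against 47.2 FPKM with KCl.

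Regulators that act in the nitrate response were listed for 18 of 35 genes, of which 16 rose and 2 fell, at a median log2 ratio of 2.298. All 16 stayed positive with TMM and DESeq2, and 13 passed the test there. HRS1 (AT1G13300), a GARP repressor of nitrate and phosphate starvation genes, had 82.1, 78.9 and 80.8 FPKM with KNO3, against 6.70, 8.02 and 8.03 FPKM with KCl, and its relative HHO1 (AT3G25790) 31.9, 32.9 and 45.6 FPKM with KNO3, against 1.49, 2.67 and 3.83 FPKM with KCl. LBD37, LBD38 and LBD39, repressors of nitrogen-responsive genes, rose 6.62 ± 0.42, 9.18 ± 0.63 and 11.1 ± 1.5-fold. In level the order was the other way round: LBD37 averaged 222.9 FPKM with KNO3 and 33.7 FPKM with KCl, LBD38 78.7 FPKM with KNO3 and 8.57 FPKM with KCl, and LBD39 43.7 FPKM with KNO3 and 3.95 FPKM with KCl. BT1 (AT5G63160), a BTB scaffold protein that lowers nitrate uptake, had 80.9, 68.6 and 74.0 FPKM with KNO3, against 5.58, 5.20 and 7.28 FPKM with KCl, and BT2 and BT5 rose at lower levels. The transcription factors TGA1 (178 FPKM with KNO3 and 63.8 FPKM with KCl), NAC4, BZIP3 and CDF1 rose 2.79 to 7.54-fold, and TGA4 averaged 39.4 FPKM with KNO3 and 14.6 FPKM with KCl. The 2 falls were NLP genes. NLP9 (AT3G59580) had 0.68, 0.36 and 0.36 FPKM with KNO3, against 5.31, 5.39 and 4.94 FPKM with KCl, 11.2 ± 2.6-fold higher with KCl. NLP8 (AT2G43500), which promotes germination on nitrate, had 5.82, 5.92 and 6.07 FPKM with KNO3, against 17.3, 21.01 and 19.2 FPKM with KCl. The family's other 7 members, NLP7 included, were not listed.

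NLP proteins bind a nitrate-responsive element (NRE) in promoters, and its letters were therefore sought before the listed genes. The pattern was TGNCNNTT with C or T at places 5 and 6, 10 further bases of any kind, and AAG, on both strands. The 500 bases before the annotated start held it in 11 of 537 higher genes (2.05%), in 1 of 233 lower genes (0.429%) and in 197 of all 27444 protein-coding genes (0.718%). In the nearest 250 bases the counts were 8 higher genes (1.49%), 1 lower gene (0.429%) and 93 of all genes (0.339%). These letters were absent from this window for NIR1, NIA1 and NRT2.1, so a match or its absence describes letters and says nothing of NLP binding. The letters GAATATTC and CACGTG were sought as well. In the 500 bases GAATATTC lay in 2.98% of higher, 3.43% of lower and 1.54% of all protein-coding genes. CACGTG lay in 10.1, 13.3 and 9.35% of the same groups, so a share above that of all genes was not particular to the NRE. The NRE matches of the 8 genes that reached 10 FPKM in a treatment are printed because they join a sequence to a measured change. Capitals mark the TGNCNNTT and AAG letters, positions are of the matched bases in TAIR10 (RefSeq TAIR10.1), and 5 bases stand on each side.
HHO3, chr1:8975830-8975850, plus strand: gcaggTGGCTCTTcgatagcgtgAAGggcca
AT3G19030, chr3:6564593-6564613, plus strand: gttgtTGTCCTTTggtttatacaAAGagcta
RTFL16, chr3:9375696-9375716, plus strand: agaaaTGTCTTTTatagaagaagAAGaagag
AT4G33040, chr4:15941589-15941609, plus strand: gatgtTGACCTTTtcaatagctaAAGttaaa
AT4G34419, chr4:16456276-16456296, plus strand: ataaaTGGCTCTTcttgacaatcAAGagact
MEE59, chr4:17554436-17554456, plus strand: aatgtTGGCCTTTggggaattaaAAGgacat
MYB34, chr5:24494172-24494192, minus strand: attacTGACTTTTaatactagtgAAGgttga
AT5G62720, chr5:25190938-25190958, plus strand: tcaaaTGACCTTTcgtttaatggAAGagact

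HHO3 (AT1G25550), a relative of HRS1, and MEE59 also match on the opposite strand over overlapping bases. The farthest base lies 496 bases before the start of HHO3 and 57 bases before that of MEE59. HHO3 had 19.1, 19.1 and 23.6 FPKM with KNO3, against 3.57, 4.19 and 5.00 FPKM with KCl. AT3G19030, which the tables do not annotate, was the most abundant of the 8, at 273 FPKM with KNO3 and 38.1 FPKM with KCl. MYB34 (AT5G60890), a regulator of indole glucosinolates, averaged 66.2 FPKM with KNO3 and 29.9 FPKM with KCl, and is negative with TMM. AT4G33040, a glutaredoxin, was the lower gene with a match, at 17.2 FPKM with KNO3 and 51.9 FPKM with KCl.

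Cytokinin is a hormone that roots make in answer to nitrate and send to the shoot. Of 34 cytokinin genes 12 were listed, 11 rose and 1 fell, and 8 of the 11 rose with TMM and with DESeq2 too. IPT3 (AT3G63110), the isopentenyltransferase that makes the first cytokinin, had 20.6, 17.4 and 19.5 FPKM with KNO3, against 0.90, 1.23 and 1.67 FPKM with KCl, a 15.1 ± 2.8-fold rise. CYP735A2 (AT1G67110), which hydroxylates it to the trans-zeatin form, had 22.9, 17.6 and 26.3 FPKM with KNO3, against 2.15, 3.01 and 3.54 FPKM with KCl. ABCG14 (AT1G31770), which exports trans-zeatin toward the shoot, had 140, 135 and 144 FPKM with KNO3, against 37.4, 41.0 and 44.8 FPKM with KCl. Synthesis, hydroxylation and export thus rose together, while LOG7 (AT5G06300), which frees the active base, fell to 25.9 FPKM with KNO3, against 59.0 FPKM with KCl. CKX4 (AT4G29740), a cytokinin oxidase that breaks cytokinin down, rose as well (edgeR log2 change 1.14, against -0.013 with TMM and 0.043 with DESeq2). The type-A response regulators, which cytokinin induces, rose for ARR5, ARR6, ARR7, ARR8 and ARR9, with ARR7 (AT1G19050) at 55.1, 49.7 and 50.9 FPKM with KNO3, against 6.88, 10.9 and 12.2 FPKM with KCl, and ARR9 the least changed at 1.94 ± 0.16-fold and negative under both scalings.

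Auxin genes were listed for 2 of 27. TAR2 (AT4G24670), a tryptophan aminotransferase of auxin synthesis, averaged 32.0 FPKM with KNO3 and 8.59 FPKM with KCl, and ARF18 rose 2.01 ± 0.14-fold but turned negative with both scalings. Abscisic acid genes were listed for 6 of 14, with the receptors PYL4 (AT2G38310, 509 FPKM with KNO3 and 235 FPKM with KCl), PYL5 (AT5G05440, 136 FPKM with KNO3 and 47.0 FPKM with KCl) and PYL6 (AT2G40330, 120 FPKM with KNO3 and 31.8 FPKM with KCl) rising and the phosphatase HAI1 (AT5G59220), a target of those receptors, falling to 1.09 FPKM with KNO3, against 2.62, 2.45 and 2.73 FPKM in the KCl libraries. CYP707A3, which breaks abscisic acid down, rose 1.87 ± 0.076-fold, and CYP707A2 was too low to test. PYL4 and CYP707A3 turned negative with TMM and DESeq2. None of the 8 genes on the gibberellin and ethylene list was in the Ler table. That list does not hold ACS7 and ACS11, genes of ethylene synthesis, which both fell (log2 ratio -1.40 and -1.11). The list of CLE and CEP peptides with their receptors, signals of root growth under low nitrogen, had 4 of 10 genes listed, all CLE genes, and all 4 rose at low levels, CLE1 being negative under both scalings: CLE7 averaged 5.01 FPKM with KNO3 and 0.820 FPKM with KCl, CLE6 4.93 FPKM with KNO3 and 1.67 FPKM with KCl, and CLE4 3.297 FPKM with KNO3 and 0.297 FPKM with KCl. These 3 CLE genes are similar tandem copies on chromosome 2, so the split of reads between them is uncertain. CC-type glutaredoxins, small redox proteins that nitrate and cytokinin induce, were listed for 5 of the 18 in the gene list, and 4 rose. That list does not hold every member of the type. The glutaredoxins AT5G11930 and AT4G33040, which it leaves out, both fell (log2 ratio -1.49 and -1.59). GRXS6 (AT3G62930) had 54.3, 67.0 and 62.3 FPKM with KNO3, against 7.19, 6.93 and 5.95 FPKM with KCl. GRXS4, GRXS7 and GRXS8, tandem copies, stayed under 3 FPKM. LUX was the single listed gene of the 13 on the clock list and rose 1.82 ± 0.099-fold, negative under both scalings. That clock list is not complete. The clock-related genes RVE2 and AT3G12320, which it leaves out, also rose (edgeR log2 change 1.86 and 1.42) and stayed positive with TMM and DESeq2.

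**Figure D3:**
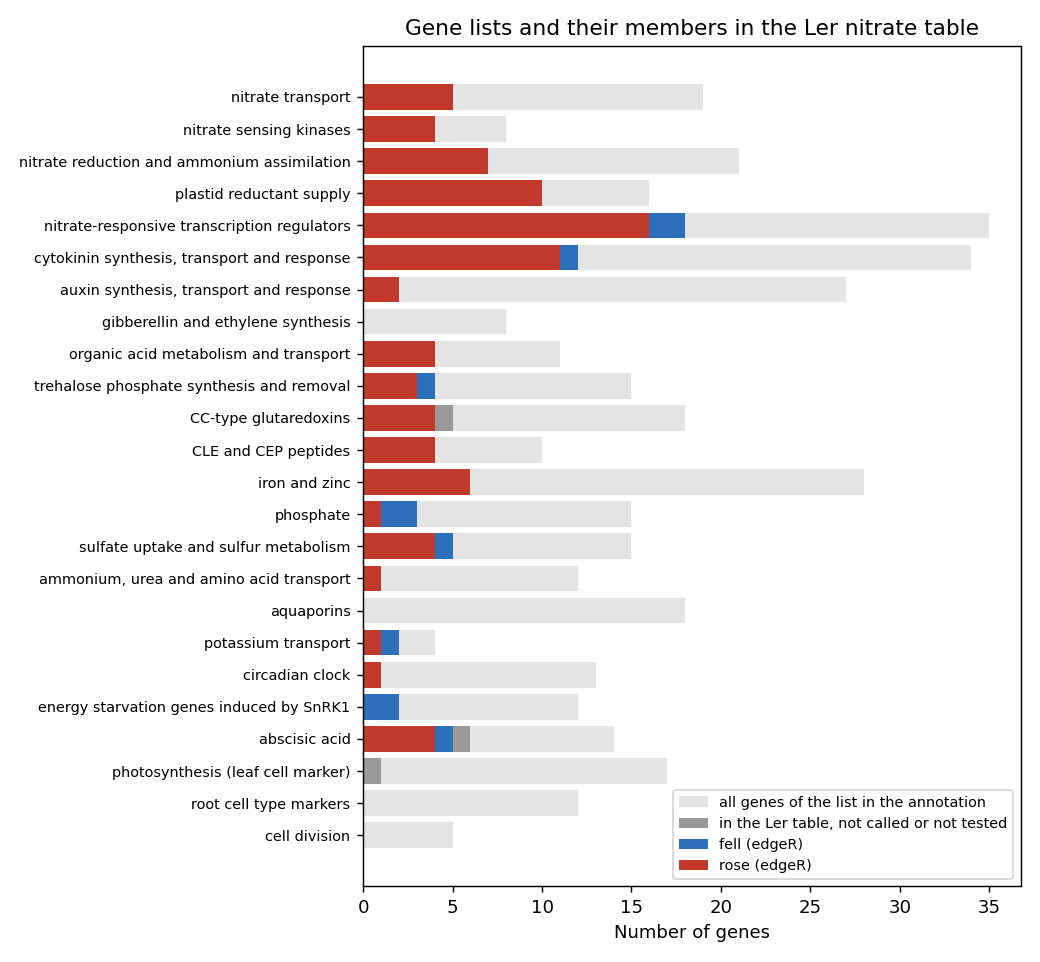
Number of genes in each of the 24 gene lists (light bars) and of those in the Ler nitrate table, coloured where they rose or fell in edgeR's test and grey where they were not tested. Reductant supply has 10 of its 16 genes coloured, while aquaporins (0 of 18), gibberellin and ethylene synthesis (0 of 8), root cell type markers (0 of 12) and cell division (0 of 5) have none. The lists are not complete: the ethylene synthesis genes ACS7 and ACS11, which fell, are outside them.

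Falls were fewer and mostly of other kinds of gene. AT1G64590, annotated as a short-chain dehydrogenase, was the one gene with a log2 ratio under -4, with 14.1, 12.5 and 19.0 FPKM with KNO3, against 335, 297 and 287 FPKM with KCl, 20.2 ± 2.8-fold higher with KCl. The 2 listed zinc-finger proteins of the FLZ family, adaptors of SnRK1, both fell. AT4G39795 had 25.0, 23.3 and 25.8 FPKM with KNO3, against 136, 144 and 152 FPKM with KCl, and AT4G17670 averaged 13.2 FPKM with KNO3 and 51.7 FPKM with KCl. OCT1 (AT1G73220), an organic cation and carnitine transporter, averaged 2.69 FPKM with KNO3 and 18.4 FPKM with KCl, CHX17 (AT4G23700), a cation and proton exchanger, 6.10 FPKM with KNO3 and 23.7 FPKM with KCl, HB53 (AT5G66700), a homeobox factor, 2.46 FPKM with KNO3 and 11.95 FPKM with KCl, and MAN1 (AT1G02310), a mannanase, 1.31 FPKM with KNO3 and 5.26 FPKM with KCl. LpxC3 (AT1G25054) is listed at 0 in all KNO3 libraries, but its KCl value comes from 1 library at 21.4 FPKM with the other two at 0, and it is one of several near-identical copies. CAB2 (AT1G29920), a chlorophyll-binding protein, likewise rests on KCl replicate 1, with 0.24, 0.15 and 0.34 FPKM with KNO3, against 5.66, 0.34 and 0.47 FPKM with KCl, and was too low to test. MBD3 (AT4G00416), by contrast, had 4.05, 1.82 and 1.82 FPKM with KNO3 and is listed at 0 in every KCl library, on 34 counts in all.

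Several rises of the largest size have no place in the lists. AT5G10210, without annotation in the tables, had 18.6, 19.1 and 28.0 FPKM with KNO3, against 0.07, 0.07 and 1.09 FPKM with KCl, and its 53.4-fold ratio has an SE of 45 because of the last KCl library. AT3G07350, of a PDDEXK-like family of unknown function, averaged 13.4 FPKM with KNO3 and 0.363 FPKM with KCl, and AT5G52050 (DTX50), a MATE efflux carrier, 13.6 FPKM with KNO3 and 0.423 FPKM with KCl. AT5G65980 (PILS7), of the PIN-LIKES auxin carriers, had 85.8, 79.9 and 87.4 FPKM with KNO3, against 3.93, 4.73 and 2.72 FPKM with KCl. AT2G48080, of the AlkB-like dioxygenase superfamily, averaged 238 FPKM with KNO3 and 14.2 FPKM with KCl, and AT1G80380, of the phosphoribulokinase and uridine kinase family, 160 FPKM with KNO3 and 8.81 FPKM with KCl. AT5G65030 rose 17.0 ± 3.6-fold, and AT1G68238 averaged 7.67 FPKM with KNO3 and 0.353 FPKM with KCl. SAG21 (AT4G02380), a late-embryogenesis-like protein of stress and senescence, was among the genes with the largest absolute difference, with 1389, 1143 and 1161 FPKM with KNO3, against 105, 107 and 124 FPKM with KCl.

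Gene families, read from the domain names in the deposited table and chosen after their values were seen and so without support from them, are given next. Proteins with a C1 domain, a cysteine- and histidine-rich zinc-binding fold that in plants forms a large family of mostly unknown function, had 22 listed members, every one higher with KNO3, and 20 rose while 2 were too low to test. With TMM or DESeq2 16 of the 20 stayed positive and 4 turned negative, and 4 passed the test with TMM and 5 with DESeq2. By product name the annotation holds 151 such genes, so that 14.6% of the family was listed, beside 1.96% of all protein-coding genes listed as higher. The changes were modest, with a median log2 ratio of 1.35, and levels with KNO3 were between 0.390 and 31.5 FPKM. Summed over the 22 genes the level was 164 to 200 FPKM with KNO3, against 66.8 to 78.6 FPKM with KCl. AT2G02680 was the most abundant, at 31.5 FPKM with KNO3 and 13.4 FPKM with KCl, and AT3G50010 averaged 15.5 FPKM with KNO3 and 5.29 FPKM with KCl. Part of the family lies in tandem runs (AT2G37780 to AT2G37820 and AT3G27480 to AT3G27510), where reads of similar copies may have been shared and members are not independent. In the KIN10ox libraries, which were not used to choose these genes for the Ler table, 17 of 18 tested C1 genes rose and none fell, at a median log2 change of 0.98. Among all genes higher in Ler and tested there, 434 of 483 rose (89.9%), at a median of 1.11, so the C1 share is close to that of all higher genes.

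SAUR genes, small proteins that auxin induces and that promote cell expansion, had 8 listed members of 78 (10.3%), of which 7 rose and 1 was too low to test; 6 of the 7 stayed positive with TMM and DESeq2. In all, 5 of them lie in a cluster between AT4G34750 and AT4G34810, and AT4G34750 averaged 33.5 FPKM with KNO3 and 13.95 FPKM with KCl. SAUR6 (AT2G21210) averaged 4.15 FPKM with KNO3 and 0.110 FPKM with KCl. WRKY factors, mostly known from defence, had 6 rises and 1 fall (2 rises and 1 fall with TMM and DESeq2), led by WRKY54 (45.1 FPKM with KNO3 and 10.5 FPKM with KCl). Among 22 genes annotated as cytochrome P450 13 rose and 6 fell, against 4 rises and 7 falls with TMM. The rises included 3 enzymes of brassinosteroid synthesis, DWF4 (16.3 FPKM with KNO3 and 8.57 FPKM with KCl, negative under both scalings), ROT3 (29.3 FPKM with KNO3 and 12.8 FPKM with KCl) and CYP90D1 (47.5 FPKM with KNO3 and 6.76 FPKM with KCl), and CYP78A9 (62.0 FPKM with KNO3 and 8.06 FPKM with KCl). Genes linked to brassinosteroid inactivation rose too: CYP72C1, a P450 outside this count, and BAT1 (edgeR log2 change 0.953 and 1.22). CYP72C1 turned negative with TMM and DESeq2, and BAT1 stayed positive. UMAMIT35, of a family of amino acid exporters, averaged 45.1 FPKM with KNO3 and 3.28 FPKM with KCl.

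UDP-glycosyltransferases were mostly lower with KNO3, with 9 falls and 2 rises (9 falls and no rise with TMM and DESeq2, where all 11 were negative). UGT72E2 (AT5G66690), which glucosylates monolignols, had 136, 132 and 137 FPKM with KNO3, against 318, 328 and 345 FPKM with KCl. UGT84A2 (AT3G21560), which glucosylates sinapate, averaged 91.3 FPKM with KNO3 and 204 FPKM with KCl, and UGT72E1 29.2 FPKM with KNO3 and 63.9 FPKM with KCl. Summed over the 11 genes the level was 266 to 295 FPKM with KNO3, against 622 to 685 FPKM with KCl. Short-chain dehydrogenases fell in 4 of 4 cases and NAC factors in 4 of 5, the exception being NAC4. Among genes annotated as bHLH 5 rose and 6 fell, and among those annotated as MYB 4 rose and 5 fell. With TMM and DESeq2 none of these bHLH, MYB or NAC genes rose, and 6 bHLH, 5 MYB and 4 NAC genes fell. MYB78, which is outside these MYB counts, also fell (edgeR log2 change -1.235, against -2.39 with TMM and -2.36 with DESeq2). Glutaredoxins went both ways: the 5 genes of the list described above were higher with KNO3, and the 2 other listed members of the family, AT4G33040 and AT5G11930 (32.7 FPKM with KNO3 and 92.0 FPKM with KCl), fell.

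**Figure D4:**
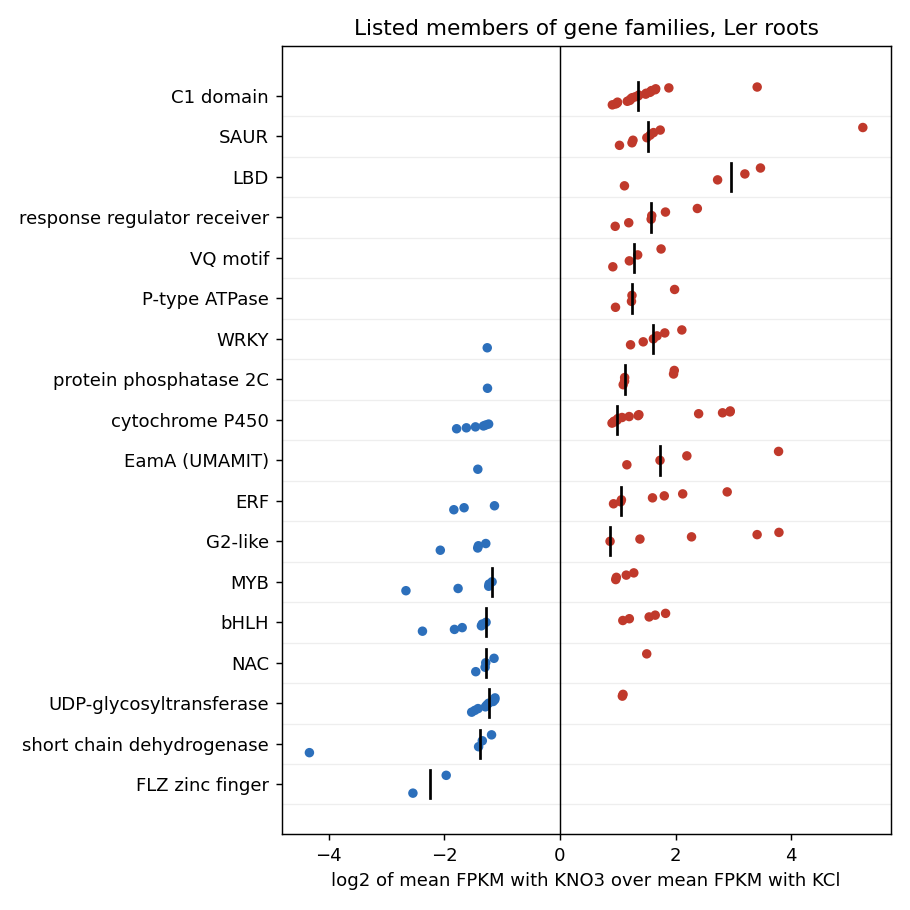
Log2 ratio of mean FPKM with KNO3 over mean FPKM with KCl (horizontal axis) for each listed member of 18 gene families of the domain annotation (rows), with the family's median as a bar and red for higher, blue for lower with KNO3. All C1 domain genes drawn lie right of 0, at 0.91 to 3.41, and 9 of 11 UDP-glycosyltransferases lie left of it. In all, 4 family genes with a mean of 0 in a treatment are not drawn.

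Some listed genes are neighbours on the chromosome. Among the listed genes there were 54 pairs of adjacent protein-coding genes, which involve 100 genes (13.0% of those listed). Both members were higher with KNO3 in 45 pairs and lower in 6, and they were opposite in 3. Many of the same-direction pairs are tandem relatives, such as NRT2.1 with NRT2.2 and CLE4 with CLE7. The opposite pairs included LBD37, at 222.9 FPKM with KNO3 and 33.7 FPKM with KCl, and AT5G67430, a GNAT acetyltransferase family gene read in the other direction 3680 bases away, at 4.18 FPKM with KNO3 and 27.1 FPKM with KCl. The other two were G6PD3 with AT1G24290, whose annotated ends overlap by 76 bases, and AT3G61400 with AT3G61410. Annotated coordinates overlapped in 4 of the 54 pairs, and since the strand setting of the counting is not given, values of such pairs may hold reads of the partner.

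The same genes were measured again in the 6 KIN10ox libraries, which have their own KCl controls. Of 483 genes higher in Ler and tested there, 434 rose and none fell, and of 211 lower genes 199 fell and none rose, which is 62.5 and 28.7% of the 694 tested (180 rises and 223 falls with TMM, 191 and 216 with DESeq2). By sign alone, 478 of the 483 and all 211 pointed the same way as in Ler. Of the 266 genes that are in the Ler table and not in the authors' KIN10ox table, 133 higher and 79 lower genes could be tested, and 85 of the higher genes rose and 67 of the lower ones fell in KIN10ox libraries. The median log2 change of the higher genes was 1.11 in KIN10ox libraries and 1.38 in Ler libraries, and that of the lower genes -1.31 in KIN10ox and -1.35 in Ler. The Ler values of genes picked in Ler are raised by that choice, so the distance between the genotypes' medians is not a result. When the difference of the responses was itself tested, as KIN10ox minus Ler, 1 of 725 genes passed, 0.138% lower and 0 higher (104 had an unadjusted p under 0.05, and DESeq2 called 5 higher and 0 lower). That gene was NIA1, at -0.67 ± 0.115 (SE) on the log2 scale with an edgeR adjusted p of 0.0259. It had 1169, 1220.3 and 1075 FPKM with KNO3 in KIN10ox, against 214, 213 and 246 FPKM with KCl in KIN10ox, so both of its KIN10ox levels lay above those of Ler, and the call was lost without any 1 of Ler KNO3 replicates 2 and 3, Ler KCl replicates 1 and 2, KIN10ox KNO3 replicates 1 and 3 and KIN10ox KCl replicate 3, and with TMM and DESeq2.

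**Figure D5:**
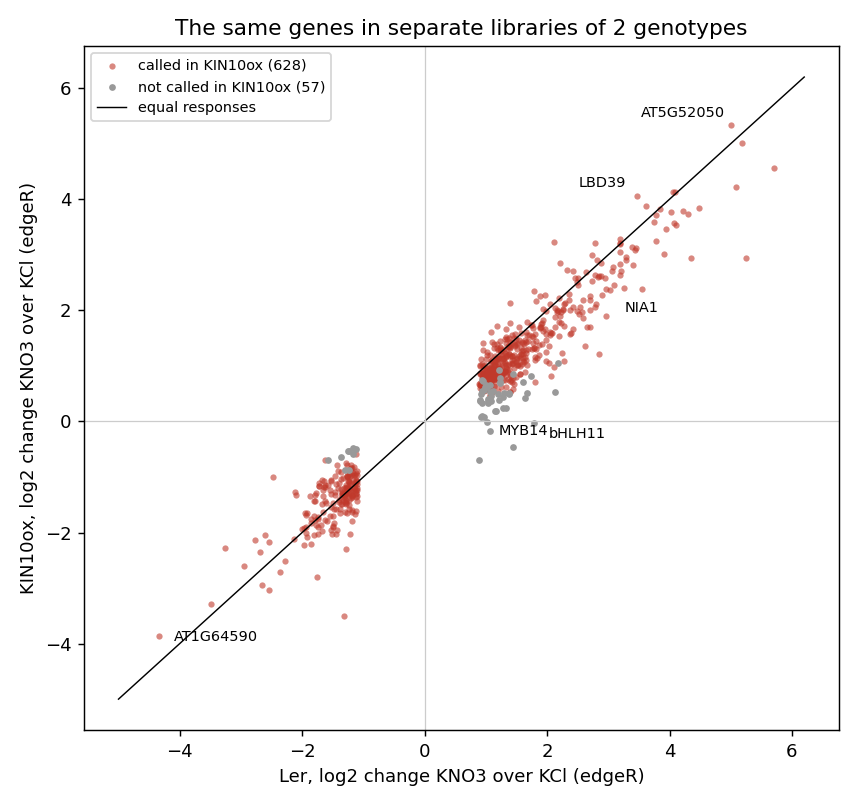
EdgeR log2 change of KNO3 over KCl in KIN10ox roots (vertical axis) against that in Ler roots (horizontal axis) for 685 Ler-listed genes tested in both, red where called in KIN10ox (628) and grey where not (57). The gap around 0 on the horizontal axis is the authors' selection on Ler, and NIA1 lies below the line of equal responses.

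Genes listed for KIN10ox and not for Ler are conditioned on the Ler outcome too, since those that the authors listed in Ler are left out. Of 358 such genes 206 could be tested in Ler, and 19 rose (9.22%) and 26 fell (12.6%), at a median log2 change of -0.36 (23 rises and 12 falls with TMM, 24 and 10 with DESeq2). The sulfate-reducing genes APR1 (104 FPKM with KNO3 and 64.4 FPKM with KCl) and APR3 (113 FPKM with KNO3 and 66.5 FPKM with KCl) were among the rises, so that all 3 APR genes of the sulfur list rose in Ler. Without KNO3 replicate 2 these counts were 11 and 14, without KNO3 replicate 1 they were 14 and 17, and without KCl replicate 1, the library with the high photosynthesis level, they were 21 and 33. Green-tissue transcripts are part of this group: LHB1B2, a chlorophyll-binding protein, averaged 69.9 FPKM with KNO3 and 126 FPKM with KCl, and moves with the summed photosynthesis level given above, whose part in these falls was not tested. In leaf protoplasts of the series, the authors' deposited table for the regulator NLP7 lists 179 of the 537 genes higher in Ler (33.3%) as higher with NLP7 than with GFP, which is 9.70% of the 1846 genes higher with NLP7. Another 4 of the 537 are listed there as lower with NLP7. Of the 233 lower genes 7 were higher with NLP7 (3.00%) and 5 lower, and over all protein-coding genes 6.73% are listed as higher with NLP7 and 0.506% as lower.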

How the data were processed

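Values came from a table of 770 genes that the authors deposited for Ler roots and from their KIN10ox table, with 504 genes and identical values shared. Per the submitters' processing notes, HISAT and Bowtie2 were the mapping tools and TAIR10 the genome. Per the series' description, genes were selected with NOISeq by a 2-fold difference, and 680 of the 770 have an adjusted p-value under 0.05 in the authors' deposited table (highest 0.245). The log2 fold changes that the authors deposited are all at least 1.0 in size and exceed the log2 ratio of mean FPKM by a median of 0.102, and 69 genes are under 2-fold by mean FPKM. FPKM and expected counts per library are as deposited, per the file headers, and 5.06% of genes have expected counts that are not whole. The sources used here give no versions, counting settings or read strand.

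Library sizes were recovered from expected counts and FPKM of genes with at least 200 counts. Rounded counts were tested with edgeR 4.0.16 (quasi-likelihood, recovered library sizes, no further scaling, filterByExpr, Benjamini-Hochberg over listed genes tested) in R 4.3.3. On simulated data of the Ler comparison with 706 genes, 89% of 2-fold and 100% of 4-fold changes were recovered, and 2.81% of calls were false. The simulation changed only part of the genes, evenly up and down, with the same spread for all. The listed genes are mostly raised, so these shares need not hold for them. Replicates are biological per the labels, and no 2 libraries of a Ler group were copies (chi-square per gene 5.22 to 14.1, for counting error 1). Same-numbered KNO3 and KCl libraries of Ler deviated together (correlations 0.172, 0.121 and 0.346). Numbers 1 and 2 were not told apart, since KNO3 1 with KCl 2 gave 0.159 and KNO3 2 with KCl 1 gave 0.115. Whether the numbers pair the samples is thus not known, and the main test used no pairing. Same-numbered libraries of KIN10ox did not all deviate together (0.278, -0.188 and 0.227).

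Gene identities and promoters are from RefSeq TAIR10.1, where 762 of the 770 genes have the same start and end. The members and the 24 lists (388 genes, 387 found) were chosen with earlier results of these data known. Named genes are the 6 list members with the largest ratio that reach 5 FPKM, members against their list's direction, the 12 largest rises, falls and absolute differences, and genes at 0 in a treatment. Others, the motif rule and the families were chosen after values were seen. Alternatives were DESeq2 1.42.0, limma 3.58.1 on log2(FPKM + 1) and log2(FPKM + 0.1), TMM, no filter, a replicate block, spread over 12 libraries, a 2-fold rule and leaving out each library.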

Additional observations from a re-analysis of the deposited data

Results flagged for a closer look

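NIA1, a nitrate reductase gene, had the one nitrate response called different between the genotypes. The difference, KIN10ox minus Ler, was -0.671 on the log2 scale (SE 0.115, edgeR adjusted p 0.0259 over 725 genes), with a log2 response of 2.36 in KIN10ox and 3.03 in Ler. Mean levels were 1155 FPKM with KNO3 and 224 FPKM with KCl in KIN10ox, and 936 FPKM with KNO3 and 114 FPKM with KCl in Ler, n = 3 each. The treatments did not overlap in either genotype, so NIA1 rose in both. The difference was not called with TMM or DESeq2, or without any 1 of Ler KNO3 replicates 2 and 3, Ler KCl replicates 1 and 2, KIN10ox KNO3 replicates 1 and 3 and KIN10ox KCl replicate 3. NIA1 was listed on its Ler response, and that choice raises Ler responses.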

How the results depend on the processing

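Scaling had the largest effect, since TMM and DESeq2's size factors centre on genes that were selected as changed. In Ler the 504 rises became 191 with TMM and 190 with DESeq2 (falls 206, against 214 and 206). In KIN10ox the 434 rises became 180 with TMM and 191 with DESeq2, and the falls of genes listed only for KIN10ox, 26 in Ler, became 12 with TMM and 10 with DESeq2. The 1 gene whose response was lower in KIN10ox than in Ler was called by neither (0 with TMM, 0 with DESeq2), and DESeq2 called 5 with a higher response, against 0. Of 91 tested named genes, 14 changed sign with TMM: GAPC2 (-0.11), TPS9 (-0.034), CIPK23 (-0.19), PYL4 (-0.050), PPCK2 (-0.14), PPC3 (-0.14), LUX (-0.21), ARF18 (-0.15), CIPK8 (-0.19), GDU1 (-0.056), SIR (-0.20), SPX4 (-0.20), GLN2 (-0.019) and CYP707A3 (-0.26). With DESeq2 12 changed sign: GAPC2 (-0.063), CIPK23 (-0.15), PYL4 (-0.0081), PPCK2 (-0.10), PPC3 (-0.10), LUX (-0.17), ARF18 (-0.11), CIPK8 (-0.14), GDU1 (-0.011), SIR (-0.15), SPX4 (-0.16) and CYP707A3 (-0.22). With TMM 5 more and with DESeq2 7 more kept their sign and lost their call.

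Leaving out 1 library gave 496 to 508 rises and 205 to 212 falls in Ler, 381 to 453 rises and 182 to 200 falls in KIN10ox, 11 to 21 rises and 14 to 33 falls among genes listed only for KIN10ox, and 0 to 2 genes with a lower response in KIN10ox. The replicate block, which treats same-numbered libraries as pairs, gave 503 rises and 206 falls in Ler and changed no call of a named gene. No filter (534 and 231), limma (503 and 206) and the 2-fold rule (447 and 217) gave counts within 1.5 times the main ones. Low counts limit the 59 untested genes.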
